A study of Mus musculus with 4 samples.

Results

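The genes described here encode the secreted and membrane-bound proteases that cut extracellular matrix and the inhibitors that hold them in check: the matrix metalloproteases (Mmp genes), the ADAMTS proteases and ADAMTS-like proteins (Adamts and Adamtsl genes) and the tissue inhibitors of metalloproteases (Timp1 to Timp4). They were taken by gene symbol from a table of 23420 genes. Of 51 symbols that matched, 39 had at least 15 reads in all and are the members: 16 MMP, 15 ADAMTS, 4 ADAMTS-like and 4 TIMP genes. The remaining 12 lay under that total, and 7 of them (Mmp1a, Mmp1b, Mmp10, Mmp20, Adamts3, Adamts14 and Adamts19) had 0 reads in every library. Just under the limit were Mmp25 with 11 reads, Adamts8 with 7 and Mmp28 with 5, and just above it were Mmp27 with 17, Mmp9 with 19 and Mmp8 with 25. The limit of 15 reads was the rule's own, so that a member can owe its place to reads of a single library.

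The libraries are of mouse pancreatic β-cells, the insulin-secreting cells of the islets, sorted by flow cytometry. All mice carried DTA, the toxin fragment used to kill β-cells, and received doxycycline for 10 days, so the cells measured in both groups are survivors of the ablation. One group of 2 libraries is labelled Bmal1KO and the other group of 2 is labelled Bmal1+/-, heterozygous; libraries with intact Bmal1 or without ablation are not analysed here. The labels do not give ages, what drives DTA or deletes Bmal1, or whether a library stands for 1 animal. The p-values set the difference between groups against the scatter of libraries within a group, estimated in part from all genes. That scatter may be technical. Arntl, the gene that encodes BMAL1, was at 75.8 and 65.6 CPM in KO-labelled libraries against 23.0 and 14.98 CPM in the heterozygous ones (log2 fold change 1.89, SE 0.24, adjusted p = 0.0175). Reads over the whole gene do not show whether a deleted part is missing, and without heterozygous replicate 2 that adjusted p was 0.0724. Under the other alternatives it ran from 2.33e-10 upward, below the threshold. Every direction given here is therefore that of the libraries as labelled.

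MMPs are zinc proteases made as inactive precursors, and between them they cut collagens, gelatin, laminins and many cell-surface proteins. Some are secreted, others are held at the cell surface by a membrane anchor. ADAMTS proteases share a zinc-dependent catalytic domain and carry thrombospondin repeats that bind matrix, and they cut proteoglycans, procollagens and von Willebrand factor. ADAMTS-like proteins have the matrix-binding repeats without the protease. TIMPs bind the active site of MMPs and block it. In the pancreas much of this machinery is known from stromal, endothelial and immune cells, and proteases of this class also act on the islet capsule and basement membrane.

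No member passed the test between the groups. Levels are CPM, read counts scaled to library size and by TMM, a normalization that evens out composition between libraries, and differences were tested by edgeR's quasi-likelihood fit, with p adjusted by Benjamini and Hochberg's method over the 14649 genes tested and a threshold of 0.05. Of the 39 members, 29 were deep enough to be tested, and 0 were past the threshold, where 1.20% of all genes tested were past it as higher and 1.34% as lower in KO-labelled libraries. DESeq2 called 4 members higher (Mmp14, Mmp2, Adamts4 and Adamts16), against 4.23% of all genes called higher by it, and limma-voom called 0. At an unadjusted p under 0.05, 8 of the 29 were higher and 0 lower, against 9.12% of all genes tested that were higher at that p. The 8 were Mmp14, Mmp2, Adamts1, Adamts4, Adamts9, Adamts16, Adamts20 and Adamtsl5, of which Adamts20 lies outside the rule for named genes and is named to complete the count. Adamts4, Adamts9 and Adamts16 met the filter on low counts only through the KO-labelled libraries and had to be higher there if they differed, so these counts are not read against the shares of all genes. In bulk RNA, more cells of a type and more RNA per cell cannot be told apart.

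The direction was uneven. Of the 29 tested members, 26 had a log2 fold change above 0 and 3 below it, with a median of 1.18, while 52.4% of all genes tested were above 0 with a median of 0.024. The groups stood apart without overlap in 14 of the 29 with the KO label higher and in 3 with it lower, where 25.3% and 23.8% of all genes tested showed such a separation. Of the 29, 18 were over the filter's minimum in all 4 libraries, 6 in both KO-labelled libraries and at most 1 heterozygous one, and 3 in both heterozygous libraries and 1 KO-labelled one, so the counts over tested members lean toward the KO label by construction. Among the 20 members with a mean of at least 1 CPM over all 4 libraries, 18 had the higher mean under the KO label. Of these 20, 9 did not overlap with the KO label higher and 2 with it lower, against 24.4% and 25.3% of the 13068 tested genes at that level. That limit is not free of the groups either. Adamts2, Adamts5, Mmp13 and Timp1 had heterozygous means of 0.544, 0.168, 0.627 and 0.814 CPM and reached it only through the KO-labelled libraries. The counts over the 20 therefore lean toward the KO label too and are not read against those shares.

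Members were most often highest in the same library. KO replicate 2 held the highest level of 25 of the 39 members, or 64.1%, where 25.4% of all genes tested were highest in it, and 10 members were highest in KO replicate 1, 2 in heterozygous replicate 1 and 2 in heterozygous replicate 2. Of all genes tested, those libraries were highest for 29.9%, 21.2% and 23.6%. The 39 include 10 members too low to be tested, and the shares are over tested genes only. Mmp3, Mmp17, Mmp19, Adamts7, Adamts15 and Adamtsl1 reached 15 reads only through KO replicate 2, and Mmp7 and Mmp27 only through KO replicate 1. The counts over the 39 therefore lean toward those libraries by construction and are not read against the shares. Without KO replicate 2 the log2 fold change was above 0 for 21 of 31 tested members, with a median of 1.10, and without KO replicate 1 for 31 of 35, with a median of 1.82. Of the 8 members that had over 80% of their summed CPM in a single library, 6 had it in KO replicate 2 (Mmp3, Mmp17, Adamts5, Adamts7, Adamts15 and Adamtsl1), and Mmp7 and Mmp27 had it in KO replicate 1.

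**Figure D1:**
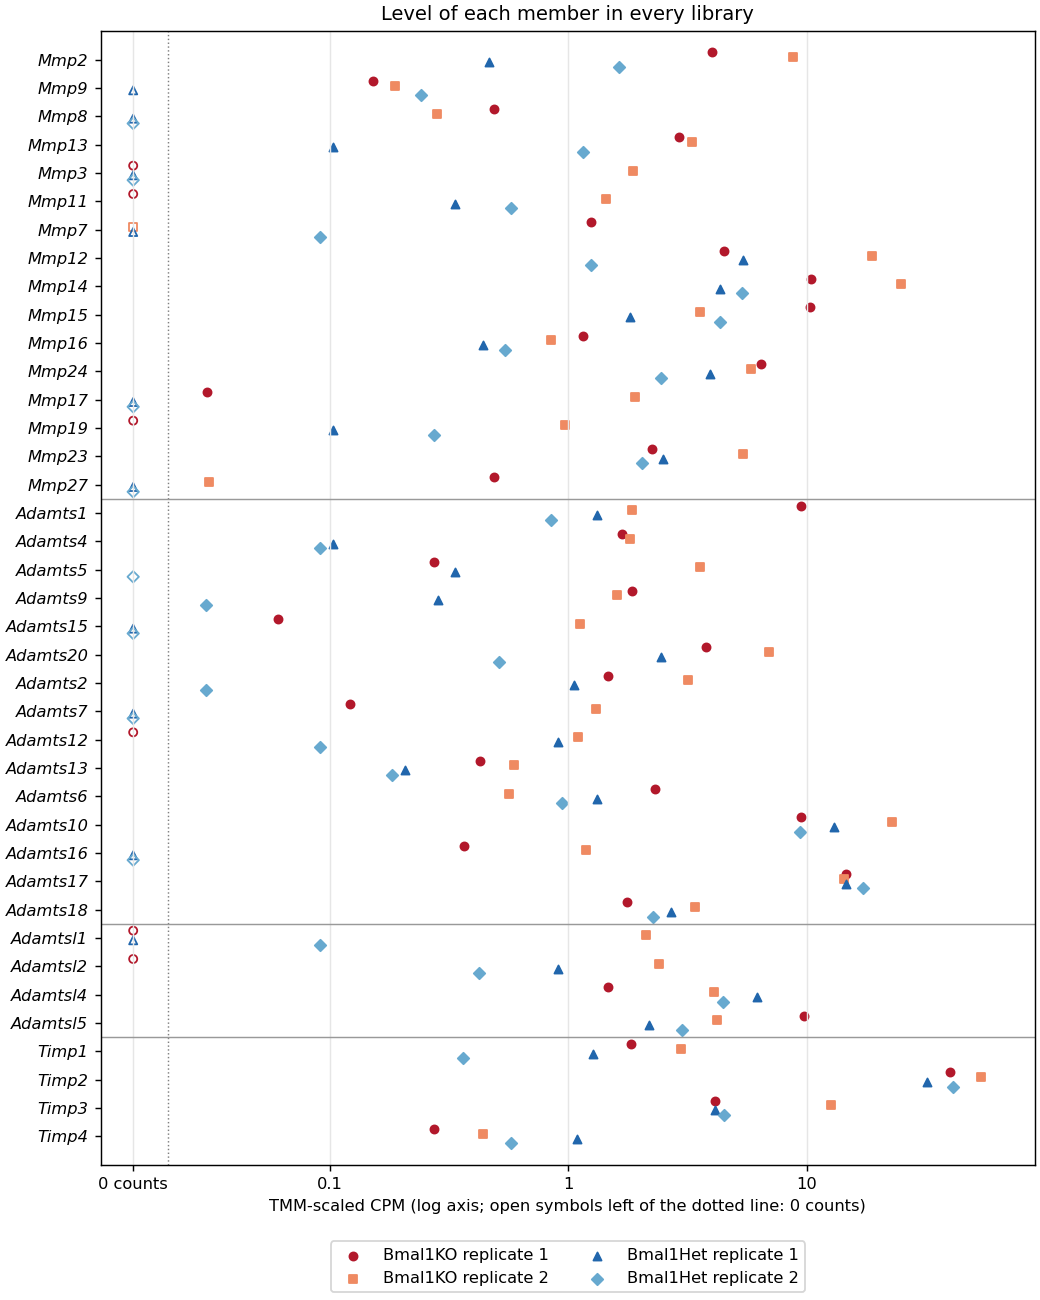
Level of the 39 members in each of the 4 libraries, in TMM-scaled CPM on a log axis; each symbol is 1 library and open symbols left of the dotted line mark 0 counts. The symbols of KO replicate 2 are furthest right in 25 of the rows, and 7 members have 0 counts in both heterozygous libraries.

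Markers of other cells differed between the same libraries. The sorted cells carried their defining RNA, with the 10 β-cell markers summing to 274009 and 235228 CPM in KO-labelled libraries and to 217593 and 276559 CPM in the heterozygous ones. That sum is almost all Ins2, Ins1 and Iapp, the insulin and amylin genes. Of the 10 markers 3 fell, with log2 fold changes of -2.04 for Ucn3, -0.96 for G6pc2 and -0.92 for Slc30a8, and 0 rose. Of the 5 alpha-cell markers, Irx2 rose (log2 fold change 2.64), and Ppy, the PP-cell hormone, was at 1973 and 4007 against 1319 and 1046 CPM and did not pass. The 12 fibroblast and stellate markers summed to 134 and 363 CPM under the KO label against 59.9 and 18.6 CPM. Of the 8 tested, 3 (Col1a2, Lum and Pdgfra) rose while 5 did not pass. Lum and Pdgfra would not have met the filter on low counts by the heterozygous libraries alone. Their calls therefore lean toward the KO label by construction. Col1a1, a fibrillar collagen chain, was at 16.9 and 70.4 CPM against 7.28 and 2.27 CPM, and Pdgfra, a receptor of fibroblasts, at 1.13 and 5.31 CPM against 0 and 0. Fbln1 of the same list ran the other way without overlap, at 0.578 and 0.936 against 1.73 and 1.24 CPM, and Dcn overlapped, at 10.1 and 20.3 against 17.9 and 3.33 CPM. Thy1 and Des, also in that list, had at most 0.18 CPM in any library, and of the 12 markers 1 and 1 were at 0 in KO-labelled libraries and 3 and 5 in the heterozygous ones. The 11 immune markers in the table summed to 167 and 565 CPM against 127 and 127 CPM. Past the threshold were 2 of 10 (Cd14 and Fcer1g), and Cd3e was at 0.21 CPM or less. Lyz2 held the largest part of that sum, at 70.0 and 321.6 against 62.3 and 62.9 CPM. Ptprc, Itgam and Csf1r overlapped, and Ptprc and Itgam were lowest in KO replicate 1. The other markers of the list were higher under the KO label without overlap. Acinar markers summed to 175 and 84.8 CPM against 67.9 and 24.6 CPM, endothelial markers to 40.8 and 18.2 CPM against 15 and 11.2 CPM, and 0 genes of either list passed, with Cdh5 at 0.0913 CPM or less. Duct markers ran the other way without overlap, summing to 569 and 548 against 742 and 817 CPM. Krt7 held most of that sum, at 368 and 397 against 567 and 663 CPM. Sox9 of that list was higher under the KO label, at 6.42 and 5.99 against 1.21 and 2.48 CPM. Delta-cell markers overlapped, at 614 and 1520 against 1025 and 1114 CPM, and neither list had a gene past the threshold. Schwann and neuronal markers summed to 18.2 and 27.7 against 12.8 and 11.6 CPM, with 0 past the threshold. KO replicate 2 was thus highest for fibroblast, immune, alpha-cell, delta-cell, PP-cell and Schwann and neuronal lists. KO replicate 1 was highest for acinar and endothelial lists. The part these cells have in the levels of the proteases was not tested.

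**Figure D2:**
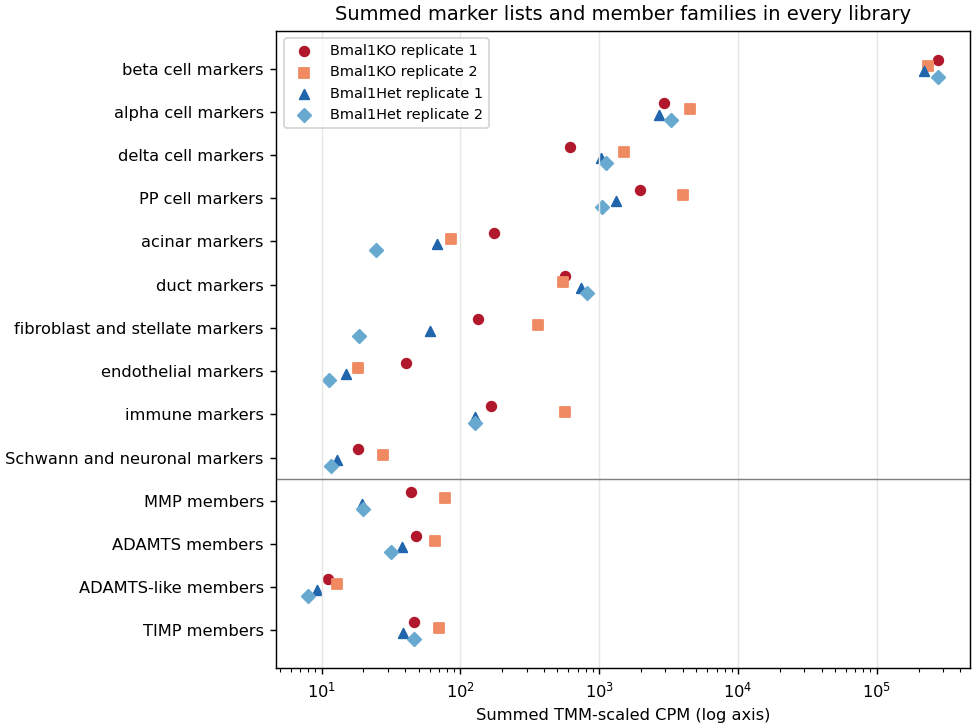
Summed TMM-scaled CPM, on a log axis, of the marker lists (above the line) and of the member families (below it), with 1 symbol per library. The fibroblast and immune sums and the MMP, ADAMTS and TIMP sums are highest in KO replicate 2, at 363, 565, 78.0, 65.1 and 69.7 CPM. The alpha-cell, delta-cell, PP-cell, Schwann and neuronal and ADAMTS-like sums are highest there too. The duct sum is highest in heterozygous replicate 2, at 817 CPM.

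Levels of different genes can be compared only per length, here as CPM per kilobase of annotated exon. By that scale Timp2, an inhibitor of most MMPs that also helps MMP14 activate pro-MMP2 at the cell surface, stood far above all other members, with a mean of 10.7 over the 4 libraries. Next came Adamts17 (1.95), Mmp14 (1.89), Timp1 (1.81), Adamts10 (1.65) and Mmp23 (1.30), whose ranges over the libraries overlapped each other. Mmp9, a gelatinase best known from neutrophils and macrophages, was next to last at 0.041. Summed over their members, TIMP genes were at 12.9 and 18.7 CPM per kilobase in KO-labelled libraries and at 10.3 and 11.6 in the heterozygous ones, and MMP genes at 10.7 and 17.2 against 4.09 and 4.67. Both sums were higher in each KO-labelled library than in either heterozygous one, and TIMP exceeded MMP in all 4 libraries. That excess rests on Timp2, which held most of the TIMP sum. Timp2 was at 10.2 and 13.8 against 8.18 and 10.6 CPM per kilobase, so that the groups overlapped. In CPM, without regard to length, the TIMP sums overlapped, at 46.1 and 69.7 against 38.3 and 46.6.

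**Figure D3:**
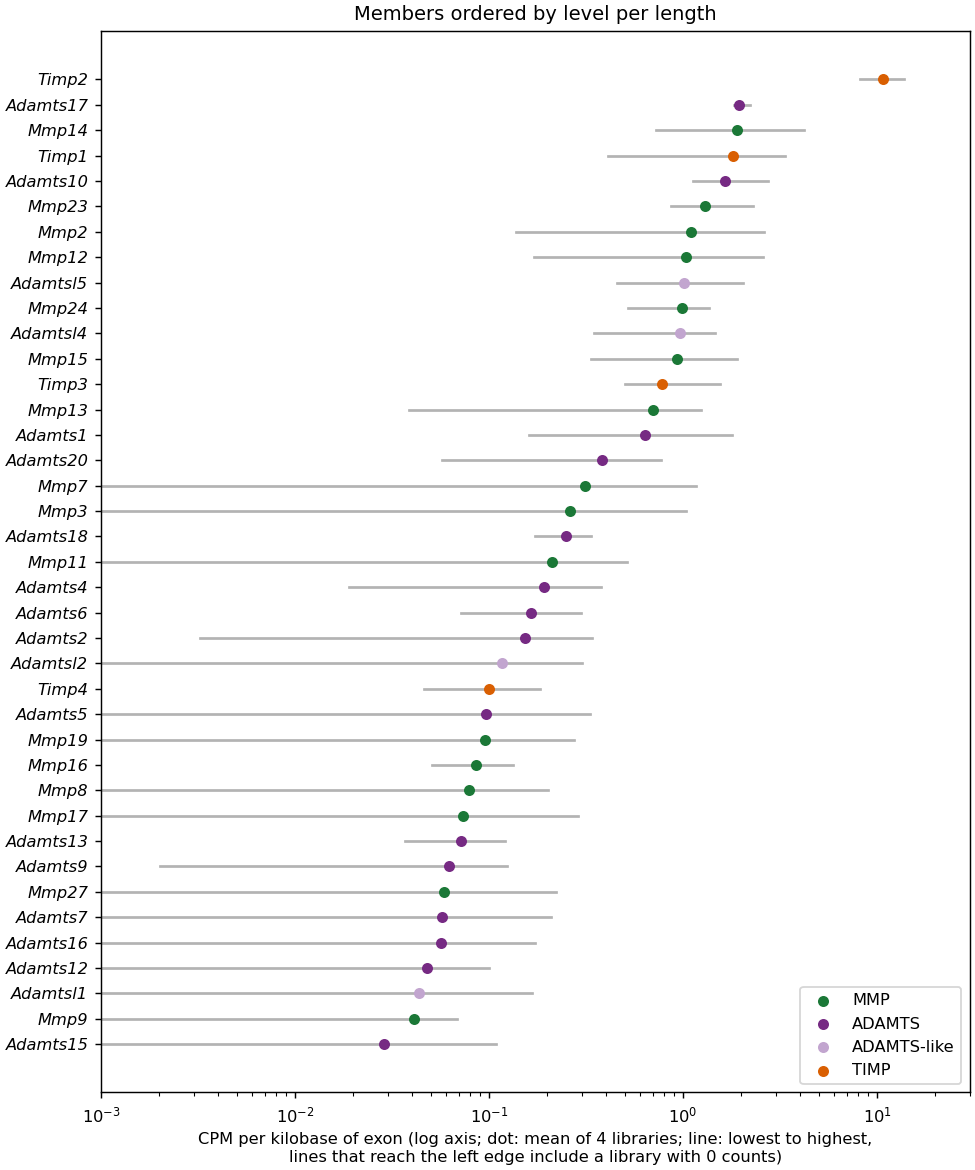
Members ordered by level in CPM per kilobase of exon on a log axis; dots are means over the 4 libraries, lines run from the lowest to the highest library and colours give the family. Timp2 stands apart at 10.7, and the lines of most members further down span a factor of several between libraries.

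The gelatinase Mmp2 and its activator Mmp14 were the MMPs with the smallest p-values. Mmp14 (chromosome 14, 54431612 to 54445364, GRCm38, plus strand) encodes MT1-MMP, a transmembrane collagenase. It was at 10.4 and 24.9 CPM in KO-labelled libraries and at 4.34 and 5.33 CPM in the heterozygous ones, 17.7 ± 10.3 against 4.83 ± 0.699 CPM (SD, n = 2). Both KO libraries lay above both heterozygous ones, and the log2 fold change was 1.87 (standard error 0.45; adjusted p = 0.0878). Mmp2 (chromosome 8, 92827291 to 92853420, plus strand), which degrades gelatin and basement membrane collagen, was at 4.02 and 8.77 against 0.465 and 1.63 CPM, or 6.39 ± 3.36 against 1.05 ± 0.827 (SD, n = 2). Again the groups did not overlap, with a log2 fold change of 2.61 (standard error 0.73; adjusted p = 0.132). Mmp14 passed without KO replicate 1 (adjusted p = 0.00920), without the filter on low counts (0.0179) and by DESeq2 (0.00222), and its log2 fold change was 1.10 without KO replicate 2 (adjusted p = 0.127). Over all alternatives its adjusted p ran from 0.00222 to 0.276. Mmp2 passed without the filter (0.0393) and by DESeq2 (0.0116), and its fold change ran from 1.94 without KO replicate 2 to 3.76 without heterozygous replicate 2, while adjusted p ran from 0.0116 to 0.364 over all alternatives. Fibroblast marker sums, given above, had the same order of libraries as Mmp2 within the KO label and the opposite order within the heterozygous label.

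Among the other transmembrane MMPs, Mmp24 was at 6.39 and 5.84 CPM under the KO label against 3.92 and 2.45 CPM, without overlap (log2 fold change 0.94, SE 0.43). Mmp24 shares 637 exonic bases with BC029722 and is uncertain to that extent, since the library chemistry keeps no strand. Mmp15 was high in KO replicate 1 alone, at 10.3 CPM against 3.56 in KO replicate 2 and 1.81 and 4.33 in the heterozygous libraries. Mmp16 was low everywhere, at 0.439 to 1.16 CPM. Mmp17, a GPI-anchored member, had 1 and 61 reads against 0 and 0, which pools to at least 22.9-fold higher against a floor of 3 reads over the heterozygous group, with nearly all of it from KO replicate 2. Mmp23, a small MMP with a membrane anchor at its other end, was at 2.25 and 5.40 against 2.50 and 2.03 CPM, so that the groups overlapped. The other gelatinase, Mmp9, had 5 and 6 reads against 0 and 8, too few to be tested. Outside the membrane-bound group, Mmp11 (stromelysin-3) had 0 and 46 reads against 13 and 19, and Mmp19 had 0 and 31 against 4 and 9, so that each had no reads in KO replicate 1 and most in KO replicate 2. Mmp11 shares 155 exonic bases with Chchd10, and Mmp19 shares 789 with Tmem198b.

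A run of 10 Mmp genes lies within 427.1 kb on chromosome 9, a cluster that arose by duplication. It holds the collagenases Mmp1a, Mmp1b, Mmp8 and Mmp13, the stromelysins Mmp3 and Mmp10, matrilysin, metalloelastase, Mmp20 and Mmp27. Mmp11 (stromelysin-3) lies on chromosome 10. Of the 10, 6 are members and the other 4 had 0 reads in all libraries. Mmp13, the main interstitial collagenase of the mouse, had 96 and 106 reads in KO-labelled libraries against 4 and 38, or 2.92 and 3.31 against 0.103 and 1.15 CPM (log2 fold change 2.32, SE 1.02, adjusted p = 0.314). The groups did not overlap, and the heterozygous libraries differed from each other more than the KO ones did. Mmp12, the macrophage metalloelastase, was at 4.50 and 18.7 against 5.39 and 1.24 CPM, with heterozygous replicate 1 above KO replicate 1, and it shares 157 exonic bases with Mmp1b. The level of Mmp12 was highest in KO replicate 2, as was that of Lyz2, a macrophage gene of the immune list, at 70.0 and 321.6 against 62.3 and 62.9 CPM. Lyz2 was level between the heterozygous libraries, where Mmp12 was not. Cd14, Cd79a and Cd3e of the same list were highest in KO replicate 1 and the rest of it in KO replicate 2. A link between Mmp12 and these genes was not tested. Mmp3 (stromelysin-1) had 60 reads in KO replicate 2 and 0 in every other library, while Mmp7 (matrilysin), a protease of epithelia that shares exonic bases with the antisense gene AV064505, had 41 reads in KO replicate 1, 0 in KO replicate 2 and 0 and 3 in the heterozygous libraries. Mmp8, the neutrophil collagenase, had 16 and 9 reads and Mmp27 had 16 and 1, both against 0 and 0, pooled differences of at least 9.22-fold and 6.27-fold on the same floor. These genes did not share 1 pattern: Mmp13 and Mmp8 had reads in both KO libraries, Mmp3 and most of Mmp12 in KO replicate 2, and Mmp7 and most of Mmp27 in KO replicate 1.

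**Figure D4:**
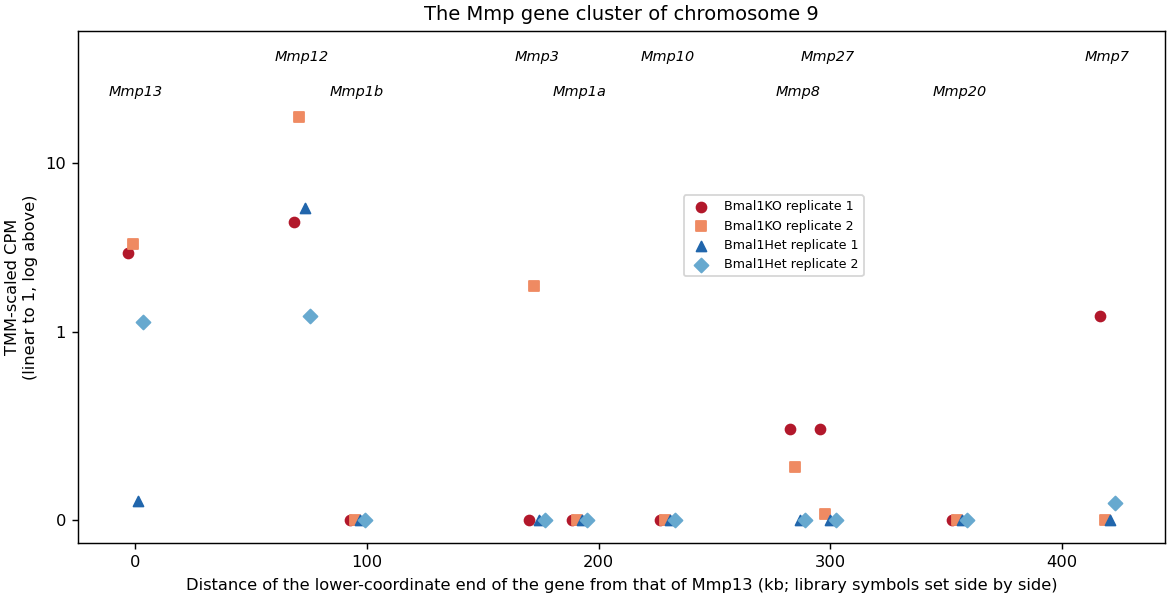
Level of the 10 Mmp genes of the chromosome 9 cluster by their distance along the chromosome, in TMM-scaled CPM (linear up to 1, log above), with the symbols of the 4 libraries set side by side. The genes without reads, Mmp1b, Mmp1a, Mmp10 and Mmp20, sit between members with reads, and the highest symbol is KO replicate 2 for Mmp12 at 18.7 CPM.

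Promoters of the cluster share a short element, which is shown here because members that carry it had their reads in different libraries. Sequences come from RefSeq promoter windows (GRCm38.p6) of 250 bases before to 50 after each annotated start, in which 26 of the 39 members had an entry. The AP-1 site, the element bound by FOS and JUN dimers, was searched with the loose spelling TGANTCA, whose N is any base. This pattern equals its own reverse complement, so a match covers both strands. It occurred in 4 of the 26 members, Mmp13, Mmp12, Mmp3 and Mmp7, against 8.97% of all genes in the table (7.81% of windows), and its last letters can overlap the first of the other motif searched, though no printed window holds both. All 4 are in the cluster, where 8 of the 10 genes matched, Mmp1a, Mmp1b, Mmp10 and Mmp20 with their 0 reads included, and Mmp8 and Mmp27 did not. Mmp20 matched only as TGAATCA, and the shares of all genes likewise count any middle base. A match describes the letters only and is neither a bound site nor a cause. The windows below read 5′ to 3′ on the plus strand with the AP-1 site in capitals; its first base lies 35, 44, 46 and 63 bases before the start site, in the order given.

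Mmp13, chr9:7272452-7272512: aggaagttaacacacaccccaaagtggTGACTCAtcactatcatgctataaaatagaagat
Mmp12, chr9:7347303-7347363: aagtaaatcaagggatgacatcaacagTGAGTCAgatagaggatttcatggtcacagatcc
Mmp3, chr9:7445749-7445809: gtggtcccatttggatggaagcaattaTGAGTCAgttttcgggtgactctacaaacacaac
Mmp7, chr9:7692000-7692060: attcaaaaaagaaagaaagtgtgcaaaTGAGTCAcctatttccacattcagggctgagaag

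TGACTCA in Mmp13 is the reverse complement of TGAGTCA in Mmp12, Mmp3 and Mmp7, so all 4 hold the same double-stranded site, while the bases around it differ. Of these genes Mmp3 had its 60 reads in KO replicate 2 and Mmp7 its 41 in KO replicate 1, as given above. The E-box CACGTG, the element BMAL1 and CLOCK bind, also equals its reverse complement and occurred in 2 of the 26 members, Adamts17 and a second annotated start of Mmp7, against 8.09% of all genes (7.15% of windows). The E-box of Adamts17 begins 173 bases before its start and is printed because the targeted gene encodes a factor of this element, again in capitals on the plus strand.

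Adamts17, chr7:66839535-66839594: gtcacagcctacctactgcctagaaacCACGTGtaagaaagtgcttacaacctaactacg

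Adamts17 (chromosome 7, 66839735 to 67153171, plus strand), a protease linked to fibrillin matrix, had the smallest ratio of its highest to its lowest library among the 29 tested members. It was at 14.5 and 14.3 CPM in KO-labelled libraries and at 14.6 and 17.2 CPM in the heterozygous ones. Its log2 fold change was -0.14 (standard error 0.24; adjusted p = 0.830), although both KO libraries lay just below both heterozygous ones. Adamts10, its fellow in fibrillin biology, was at 9.47 and 22.7 against 12.9 and 9.32 CPM, high in KO replicate 2 alone (log2 fold change 0.53, and -0.24 without that library). Adamts18 and Adamts6 overlapped between the groups, with log2 fold changes of 0.06 and 0.35. Adamts16 had 12 and 38 reads in KO-labelled libraries and 0 in both heterozygous ones, at least 18.4-fold higher against 3 reads over the group (adjusted p = 0.108, and 0.0303 by DESeq2 to 0.548 over the alternatives).

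The proteoglycan-cleaving members are Adamts1, Adamts4, Adamts5, Adamts9, Adamts15 and Adamts20, of which Adamts4 and Adamts9 met the filter on low counts only through the KO-labelled libraries. Adamts4 (chromosome 1, 171250421 to 171260637, plus strand), known as aggrecanase-1, had 55 and 58 reads under the KO label against 4 and 3, or 1.67 and 1.81 against 0.103 and 0.0908 CPM. The libraries of each group agreed closely and the groups did not overlap, with a log2 fold change of 4.11 (standard error 0.92; adjusted p = 0.0746). The fold change ran from 3.98 to 4.20 over all alternatives and the adjusted p from 0.00579 by DESeq2 to 0.498 without heterozygous replicate 2. Adamts9, which also cuts versican and aggrecan, had 61 and 51 reads against 11 and 1 (log2 fold change 3.40, SE 1.12, adjusted p = 0.186), and 1381 of its exonic bases are shared with A730049H05Rik. Both libraries labelled KO lay well above both heterozygous ones.

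Adamts1, a versican-cleaving protease induced in many tissues by injury or hormones, was high in KO replicate 1 alone. It was at 9.44 and 1.84 CPM in KO-labelled libraries against 1.32 and 0.847 CPM, so the groups did not overlap but the KO libraries were far apart (log2 fold change 2.38, SE 0.81, adjusted p = 0.200). Without KO replicate 2 it passed (log2 fold change 3.11, adjusted p = 0.0159), and without KO replicate 1 the fold change was 0.74 (adjusted p = 0.709, the highest of its alternatives). Its neighbour on chromosome 16, Adamts5, or aggrecanase-2, showed the reverse, with 9 and 114 reads against 13 and 0. Adamts20 had 124 and 223 reads against 95 and 17 (log2 fold change 1.85, SE 0.77), without overlap. Adamts15 had 2 and 36 reads against 0 and 0, at least 14.0-fold higher on the pooled floor and nearly all in KO replicate 2.

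Among the remaining proteases, Adamts2, which removes the amino-terminal propeptide of fibrillar procollagens, was at 1.46 and 3.18 CPM under the KO label against 1.06 and 0.0303 CPM (log2 fold change 2.07, SE 1.27). The groups did not overlap, though KO replicate 1 lay close to heterozygous replicate 1. Adamts3 and Adamts14, the other procollagen N-proteinases, had 0 reads. Of the pair that cuts cartilage oligomeric matrix protein, Adamts7, which shares 122 exonic bases with Tbc1d2b, had 4 and 42 reads against 0 and 0, and Adamts12 had 0 and 35 against 35 and 3. Adamts13, which trims von Willebrand factor and is made mainly by hepatic stellate cells, had 14 and 19 reads against 8 and 6, at or under 0.593 CPM in every library.

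The ADAMTS-like genes had no common direction. Adamtsl5, a fibrillin-binding protein gene, was at 9.68 and 4.18 CPM in KO-labelled libraries against 2.17 and 3.00 CPM (log2 fold change 1.42, SE 0.52, adjusted p = 0.229). It passed without KO replicate 2 (adjusted p = 0.0468, and up to 0.645 over the alternatives). Adamtsl4, whose protein promotes fibrillin microfibrils in the eye, was at 1.46 and 4.09 against 6.17 and 4.45 CPM, lower in both KO libraries (log2 fold change -0.94, SE 0.58, adjusted p = 0.478). Adamtsl2 had 0 and 77 reads against 35 and 14, so that its libraries gave no common direction, and its fold change of 0.85 (SE 1.65) turned negative by limma-voom and without KO replicate 2. Adamtsl1 had 68 reads in KO replicate 2, 3 in heterozygous replicate 2 and 0 in the other libraries.

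The 4 inhibitors had a median log2 fold change of 0.66. Timp2 (chromosome 11, 118301069 to 118355740, minus strand), described above as highest per length, was at 39.9 and 53.7 CPM in KO-labelled libraries and at 31.9 and 41.1 CPM in the heterozygous ones, with overlap (log2 fold change 0.36, SE 0.22, adjusted p = 0.475). Timp1, an inducible inhibitor of secreted MMPs encoded on the X chromosome, was at 1.83 and 2.97 against 1.27 and 0.363 CPM, without overlap (log2 fold change 1.55, SE 0.82, adjusted p = 0.405). Timp3, which is bound to matrix and also inhibits ADAMTS proteases, was at 4.11 and 12.6 against 4.13 and 4.51 CPM, so that it stood out in KO replicate 2 and lay level elsewhere (log2 fold change 0.95, and -0.07 without that library). Timp3 shares 1733 exonic bases with Syn3 and cannot be told apart from it there. Timp4 ran the other way, at 0.274 and 0.437 against 1.08 and 0.575 CPM, without overlap (log2 fold change -1.22, SE 0.94, adjusted p = 0.586). It had 9 and 14 reads against 42 and 19, and 90 of its exonic bases are shared with Syn2. Timp4, Adamtsl4 and Adamts17 were the 3 members with both KO-labelled libraries below both heterozygous ones.

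**Figure D5:**
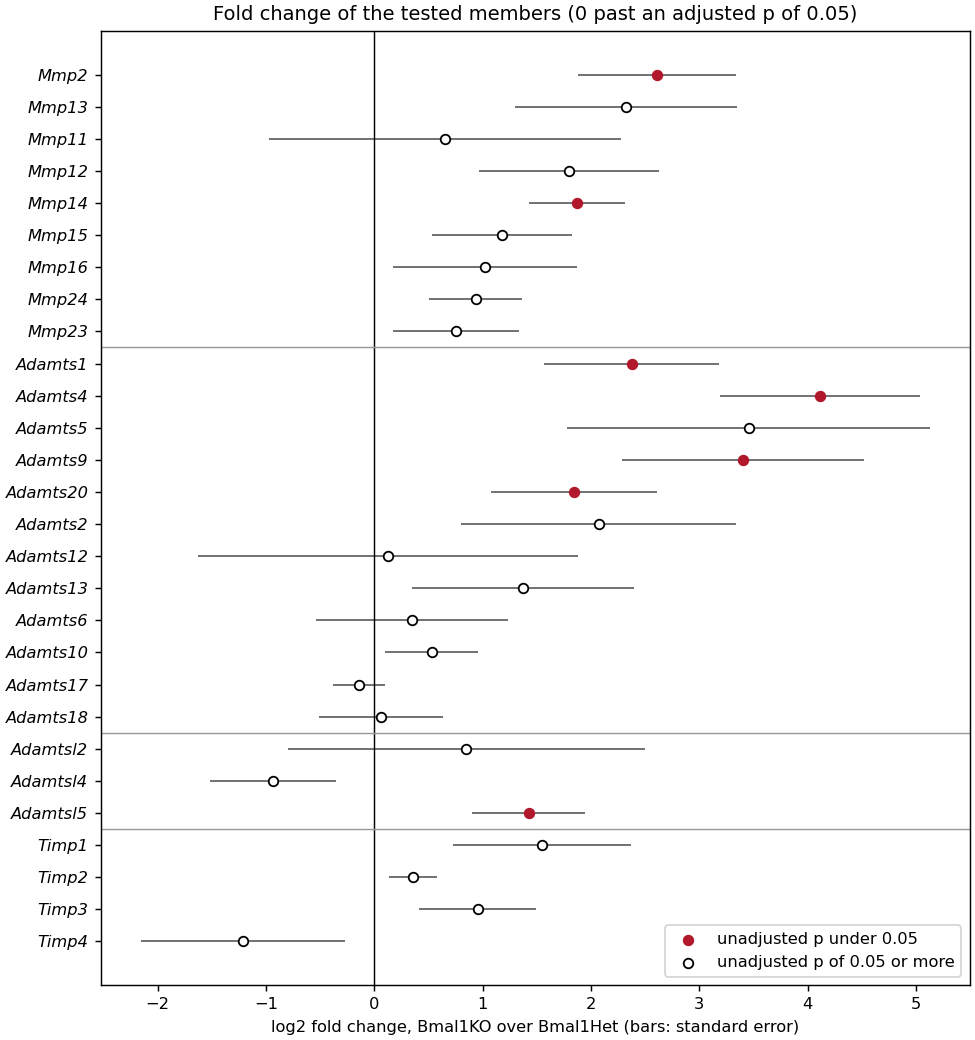
Log2 fold change of 28 tested members, libraries labelled KO over heterozygous, with standard errors as bars; Adamts16 is left out because its reads in the heterozygous libraries were 0. Filled dots have an unadjusted p under 0.05, and 0 members passed after adjustment.

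Other genes of matrix proteolysis were read from a list of 53 genes of activators, regulators, related proteases and substrates, of which 38 were tested. Among these, 3 rose, 1 fell and 34 did not pass, with a median log2 fold change of 0.26. The 3 that rose are matrix substrates: Fn1, fibronectin, at 19.3 and 9.71 CPM in KO-labelled libraries against 0.258 and 0.968 CPM (log2 fold change 4.58, SE 0.68, adjusted p = 0.0230), Lum, a small collagen-binding proteoglycan, and Sparc, a collagen-binding glycoprotein. Lum is also in the fibroblast list, where the sums under the KO label were 134 and 363 CPM against 59.9 and 18.6 CPM. Lum was at 4.44 and 5.18 against 0.103 and 0.363 CPM and Sparc at 20.7 and 49.4 against 7.61 and 7.23 CPM. By the heterozygous libraries alone, Fn1 and Lum would not have met the filter on low counts. Their entry into the test therefore leans toward the KO label, though both also passed without that filter. The gene that fell was Spock1, a testican proteoglycan described as a regulator of MMP activation, at 9.56 and 24.2 against 95.3 and 91.1 CPM (log2 fold change -2.46, SE 0.39, adjusted p = 0.0276). Both heterozygous libraries held Spock1 at nearly the same high level, and both KO-labelled libraries lay far below it. Fn1 passed under every alternative tried. Without heterozygous replicate 2 it was the only gene of the 53 that passed, with adjusted p of 0.0911 for Lum, 0.160 for Sparc and 0.0832 for Spock1. Without heterozygous replicate 1, Fn1 and Spock1 passed and Lum (0.0996) and Sparc (0.0863) did not. Of 10 tested ADAM proteases, 4 activators and their receptors (Furin, Pcsk6, Plat and Plaur), and 3 procollagen C-proteinases and enhancers, 0 passed in edgeR's test.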

How the data were processed

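Sorted β-cell RNA of 4 libraries was turned into cDNA by the SMART-Seq v4 chemistry, per the labels' protocols. That chemistry keeps no strand. The authors deposited whole-number read counts per gene symbol. STAR, edgeR and mm10 are named in the submitters' processing notes with no version or role, while for read counting and its annotation the sources used here name nothing. Totals ran from 31056116 to 38020488 counts, so that 3 counts are 0.0774 to 0.0936 CPM. Intervals and floors cover counting error only. Replicates differed by far more than sampling noise (chi-square per degree of freedom 63.9 and 42.9) and none was counted as a copy.

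Low genes were removed by filterByExpr (at least 10 counts, and 15 in total), and the rest TMM-scaled and tested by edgeR 4.0.16 (glmQLFit, glmQLFTest, 2-sided, R 4.3.3), the model holding only the group. The SE is the size of the fold change over the root of F. The procedure was tested on simulated data. Lengths, positions and exon overlaps are from GENCODE M21 (GRCm38), unions of exons per gene. One exon overlap is not reported here. Alternatives were RLE or no scaling, no filter, DESeq2 1.42.0, limma-voom (limma 3.58.1), a replicate block and leaving out each library.

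The members, the gene lists and the rules were chosen with earlier results of these data known. By rule the text names Arntl, members past the threshold, the 5 members with the smallest p in each direction (3 exist below 0), the 4 TIMPs, Mmp2, Mmp9 and Mmp14, the 3 MMP, ADAMTS and ADAMTS-like members highest per kilobase, and listed other genes past the threshold. Further members are given by their values to account for each, outside that rule. Motifs of the member proteins were not analysed here, nor was the deposited normalized table used.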

Additional observations from a re-analysis of the deposited data

How the results depend on the processing

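Members past the threshold numbered 0 with RLE scaling, library sizes only and limma-voom, 2 without the filter on low counts (Mmp14 and Mmp2), 4 by DESeq2, and 0 to 2 on leaving out each library. Genes past it in the whole table numbered 372 at first, 808 without the filter, 1179 by DESeq2 and 25 to 826 on leaving out each library, the lowest without heterozygous replicate 2 and the highest without KO replicate 2. Of the other matrix-proteolysis genes, 4 passed at first, 7 by DESeq2, 2 by limma-voom (Fn1 and Spock1) and 1 to 8 on leaving out each library. The cause of these shifts was not tested. Titles share replicate numbers, yet nothing in the labels says that they pair libraries, and deviations of same-numbered libraries correlated at -0.02 across genes; with the replicate number as a block 591 genes and 2 members (Mmp14 and Mmp2) passed. Tested members above 0 were 22 of 29 by limma-voom and with the block. Of 209 comparisons of a named gene with an alternative, 184 kept direction and side of the threshold, 11 came to pass, 8 no longer passed (Arntl, Lum, Sparc and Spock1) and 6 turned in sign: Adamtsl2 to -1.78 by limma-voom and -0.83 with the block, and, without KO replicate 2, Adamtsl2, Timp3, Mmp23 and Adamts10. On leaving out each library Adamtsl2 ran from -7.54 (a fitted value with 0 reads in the lone KO library, which depends on the prior count and is no bound) to 1.82, Timp3 from -0.074 to 1.52, Mmp23 from -0.012 to 1.23 and Adamts10 from -0.24 to 0.9999. Depth limits the 19 members with a mean under 1 CPM, where a group at 0 counts allows up to 3.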
